A study of Homo sapiens with 5 samples.

Results

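Histone genes and transfer RNA (tRNA) genes lie in clusters, and the peaks of 5 such clusters are described here in RH18 and RD. Both are established human lines derived from fusion-negative rhabdomyosarcoma, a sarcoma that resembles developing muscle. The members were all listed peaks that overlapped, by at least 1 bp, a window at 26.00 to 28.95 Mb on chromosome 6, 161.36 to 161.60 Mb on chromosome 1, 21.07 to 21.16 Mb on chromosome 14, 3.20 to 3.25 Mb on chromosome 16 or 8.02 to 8.13 Mb on chromosome 17 (build hg19). They came to 585 of the 100703 peaks in all lists. Of these, 155 were among the 11136 MYF5 peaks of RH18, 238 among the 46408 RH18 regions of histone H3 acetylated at lysine 27 (H3K27ac), and 192 among the 43159 RD H3K27ac regions. The windows were chosen by the height of their MYF5 peaks and by the gene clusters they cover, so MYF5 heights below describe that choice and were not tested. Each window is given apart, because tall MYF5 peaks at genes of RNA polymerase III can be unspecific antibody signal, which was not tested.

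The series mapped H3K27ac and MYF5 in RH18 and H3K27ac in RD by chromatin immunoprecipitation and sequencing, with input DNA of each line. No genetic change or drug treatment is labelled in either line, and all cells were fixed in 1% formaldehyde for 12 minutes. Every group was 1 library, MYF5 was not mapped in RD, and MYF5 was pulled down with 1 antibody. The inputs, and any control for what that antibody binds besides MYF5, were not used here. No spread between replicates could therefore be measured, no difference was tested, and the 95% intervals (exact Clopper-Pearson) cover counting error only. The muscle identity of the lines was not checked here against marker genes, because no annotation of build hg19 was used.

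Replication-dependent histone genes encode the H1, H2A, H2B, H3 and H4 proteins that package new DNA. They are transcribed by RNA polymerase II when cells copy their genome, and many are arranged head to head around a shared promoter. The tRNA genes are short, carry their promoter elements inside the gene, and are read by RNA polymerase III. An active tRNA gene is itself depleted of nucleosomes and is typically flanked by acetylated ones. MYF5 is a basic helix-loop-helix factor of the muscle lineage that binds E-boxes, with the letters CANNTG, and H3K27ac marks nucleosomes at active promoters and enhancers. In the RefSeq annotation (GRCh38.p14, used only for names and gene order) chromosome 6 held 55 protein-coding histone genes: 6 for H1, 12 for H2A, 15 for H2B, 10 for H3 and 12 for H4. It also held 155 of the 465 named tRNA genes, and 98 of them lay between the first and the last histone gene. The histone genes formed 3 runs in that order, broken wherever at least 10 other genes lay between. They held 34 genes (H2AC1 to H4C8), 5 genes (H2BC11 to H2AC12) and 16 genes (H2BC13 to H2BC17). The first break held 47 tRNA genes with the butyrophilin genes BTN3A2 to BTN1A1, HMGN4, ABT1 and ZNF322, and the second held 51 tRNA genes with PRSS16, POM121L2, ZNF391 and ZNF184. No peak was assigned to a gene, since the peaks and this annotation are on different builds.

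Promoter sequences of the short middle run are shown as examples of histone gene promoters. Each runs 5′ to 3′ on the strand of its gene, from 250 bases before to 50 after the annotated start (RefSeq, GRCh38.p14). Capitals mark 3 motifs on either strand. The TATA box was searched as TATAAA. The CCAAT box was searched by its name's letters. The E-box was searched as CANNTG, where N is any base. Reverse complements of the TATA and CCAAT boxes are in capitals too. H2BC11 lies at chr6:27132746-27133045 on the minus strand, H2BC12 at chr6:27146809-27147108 on the minus strand (1 of its 2 entries) and H4C9 at chr6:27139032-27139331 on the plus strand.
H2BC11: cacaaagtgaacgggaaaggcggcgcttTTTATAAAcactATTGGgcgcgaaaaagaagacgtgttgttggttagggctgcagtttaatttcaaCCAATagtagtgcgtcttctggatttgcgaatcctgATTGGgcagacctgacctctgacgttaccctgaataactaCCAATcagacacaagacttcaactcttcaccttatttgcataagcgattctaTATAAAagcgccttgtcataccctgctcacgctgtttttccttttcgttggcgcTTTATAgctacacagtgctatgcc
H2BC12: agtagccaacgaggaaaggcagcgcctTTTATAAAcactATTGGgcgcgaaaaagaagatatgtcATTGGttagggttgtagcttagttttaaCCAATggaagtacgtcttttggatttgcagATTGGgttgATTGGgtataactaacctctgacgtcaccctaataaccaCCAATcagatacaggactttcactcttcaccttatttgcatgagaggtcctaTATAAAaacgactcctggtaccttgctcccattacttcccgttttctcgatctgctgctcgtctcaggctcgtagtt
H4C9: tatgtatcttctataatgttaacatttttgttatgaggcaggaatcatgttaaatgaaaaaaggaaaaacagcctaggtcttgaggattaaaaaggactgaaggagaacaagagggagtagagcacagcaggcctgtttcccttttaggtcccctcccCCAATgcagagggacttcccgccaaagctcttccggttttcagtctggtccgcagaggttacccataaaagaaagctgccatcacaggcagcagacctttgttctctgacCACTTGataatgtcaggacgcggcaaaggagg

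The H2B gene promoters, H2BC11 and H2BC12, each held a TATAAA on the gene's own strand, beginning 28 bases before the start in H2BC11 and 27 bases before it in H2BC12. Near the far end of each window a second match read TATAAA on both strands, overlapping itself. H2AC11, an H2A gene, faces H2BC11, and its window reads the same stretch from the other side, with its own TATAAA 31 bases before the start. CCAAT on either strand occurred 4 times in the H2BC11 window and 6 times in that of H2BC12, against 1 time in H4C9. H4C9 encodes histone H4. It had no TATAAA, and it was the gene of these 3 with a match to CANNTG, as CACTTG after its start.

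Over 54 promoter windows of 50 chromosome 6 histone genes, CCAAT occurred in 87.0% of windows, against 34.6% of the 35093 promoter windows in the RefSeq table. By class it occurred in 17 of 17 H2B windows, 11 of 11 H2A windows, 10 of 10 H3 windows and 6 of 6 H1 windows, but in 3 of 10 H4 windows. The printed H4C9 window holds it, unlike most H4 windows. TATAAA occurred in 66.7% of histone windows and 11.5% of all windows. By class it was in 13 of 17 H2B, 8 of 11 H2A, 6 of 10 H3, 6 of 10 H4 and 3 of 6 H1 windows. H4 windows were thus mixed, and H4C9, which lacks it, does not stand for its class. The E-box, CANNTG, occurred in 72.2% of histone windows and 68.7% of all windows. By class it was in 13 of 17 H2B, 9 of 11 H2A, 7 of 10 H3, 7 of 10 H4 and 3 of 6 H1 windows, so the H2B examples printed here, without it, do not stand for their class either. Its form CAGCTG occurred in 22.2% of histone windows and 17.9% of all windows. Both strands were searched, and CAGCTG is contained in CANNTG. A match is a string of letters and does not show a bound site.

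Fold enrichment, the caller's ratio of signal to local background at a summit, is the authors' own value. The sequenced tags behind it were worked back from that fold and its p-value. MYF5 summits in the windows rested on 25 to 243 tags, with a median of 84, against 42 over the whole MYF5 list. The lists ended at different p-values and a tag was worth less fold in RD, so folds were compared within a list and never between the lines.

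MYF5 peaks of the windows were taller than the list they came from, which is how the windows had been found. Their median fold was 24.2, against 11.2 over the whole MYF5 list. By window the median was 21.3 on chromosome 6, 38.7 on chromosome 1, 39.8 on chromosome 14, 26.5 on chromosome 16 and 37.4 on chromosome 17. Of the 155 peaks, 90 were in the top decile of the list by fold (9.99% of all MYF5 peaks by construction), and 19 were among its 100 tallest. Of those 19, 8 lay on chromosome 6, 6 on chromosome 17, 4 on chromosome 14 and 1 on chromosome 1. The H3K27ac regions of the same windows stood less apart. Their median fold was 16.6 in RH18, against 13.98 over the RH18 list, and 11.3 in RD, against 8.0 over the RD list. By window it was 16.1 in RH18 and 12.6 in RD on chromosome 6, 29.9 and 10.9 on chromosome 14, and 21.3 and 8.87 on chromosome 17. It was below the list in both lines on chromosome 1 (12.8 in RH18, 7.27 in RD) and chromosome 16 (11.6 in RH18, 7.15 in RD). Among the 100 tallest H3K27ac regions of each list, 3 RH18 regions and 0 RD regions were in the windows. The windows held 0.513% of all RH18 regions and 0.445% of all RD regions. In the top decile of their own list by fold were 54 of the 238 RH18 regions and 51 of the 192 RD regions. Both shares were above that of the whole list, though below that of the MYF5 peaks. That the H3K27ac regions stood less apart than the MYF5 peaks follows in part from the choice of windows by MYF5 height.

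The windows also differed in how many MYF5 peaks they held for each acetylated region. Chromosome 14 held 433 MYF5 peaks per 100 RH18 regions, chromosome 1 held 180.0, chromosome 16 held 133, chromosome 17 held 77.3 and chromosome 6 held 53.5. The whole lists held 24.0. Per 100 RD regions the windows held 433 (chromosome 14), 160.0 (chromosome 16), 81.8 (chromosome 1), 73.9 (chromosome 17) and 72.0 (chromosome 6), against 25.8 over the whole lists. The ratio was above that of the whole lists in each window with both lines. The windows had been chosen by their MYF5 peaks, so this follows in part from the choice. The ratios of chromosome 14 rested on 13 MYF5 peaks and 3 regions of each line.

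The height of a MYF5 peak and its place relative to acetylated nucleosomes are separate values, and the next counts use the place. The summit lay inside an RH18 H3K27ac region for 64 of the 155 MYF5 peaks (41.3%, interval 33.5 to 49.5%), where 55.2% of all MYF5 summits did. It lay inside an RD region for 64 as well (41.3%), where 39.9% of all MYF5 summits did. The pooled share hides a split between the windows. On chromosome 6 the summit was inside an RH18 region for 58 of 108 peaks (53.7%, 43.9 to 63.4%), close to the whole list. In the 4 smaller windows together it was inside for 6 of 47 (12.8%, 4.83 to 25.7%). These 6 were 4 of 17 on chromosome 17, 1 of 13 on chromosome 14, 1 of 9 on chromosome 1 and 0 of 8 on chromosome 16, where the interval reached up to 36.9%. For RD regions the count on chromosome 6 was 60 of 108, a share above the 39.9% of all MYF5 summits. In the smaller windows it was 4 of 47 (8.51%, 2.37 to 20.4%), a share below it.

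Tall MYF5 peaks were less often inside RH18 regions over the whole list too, so the tallest were also set side by side, a cut chosen after the values had been seen. Among MYF5 peaks of the top decile, the summit was inside an RH18 region for 20 of 54 in the chromosome 6 window (37.0%, 24.3 to 51.3%) and for 4 of 36 in the smaller windows (11.1%, 3.11 to 26.1%), against 37.6% of that decile over the list. Inside an RD region were 17 of 54 on chromosome 6 and 1 of 36 in the smaller windows (2.78%, 0.0703 to 14.5%), against 28.4% of that decile. The chromosome 6 share was near that of the list's top decile in RH18 and slightly above it in RD. The share of the smaller windows was below it in both lines. The cut uses MYF5 fold, which also chose the windows. Peaks of a window are neighbours and not independent replicates, so the intervals are no test of these differences.

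In the smaller windows many summits outside a region lay right beside it. In those windows 18 of 47 summits were outside but within 500 bp of an RH18 region (38.3%, 24.5 to 53.6%), where 16.9% of all MYF5 summits were. The median distance of these 18 was 113.5 bp. By window they were 8 of 17 on chromosome 17, 4 of 9 on chromosome 1, 3 of 8 on chromosome 16 and 3 of 13 on chromosome 14. For RD regions such summits were 21 of 47 (44.7%), at a median of 105 bp, where 23.0% of all summits were. By window they were 8 of 17, 6 of 9, 4 of 8 and 3 of 13, in the same order. On chromosome 14 most summits lay over 5 kb from any region of either line. Chromosome 6 had 18 of 108 such summits beside RH18 regions (16.7%, 10.2 to 25.1%), near the list. Beside RD regions it had 17 of 108 (15.7%, 9.45 to 24.0%), below the list. Counting every summit within 500 bp, the share in the top decile was 58.3% (40.8 to 74.5%) in the smaller windows for either line, against 65.0% of that decile for RH18 and 69.9% for RD. A few summits sat in a gap with acetylated regions on both sides within 500 bp. There were 5 of 155 for RH18, where 4.81% of all MYF5 summits did so, and 12 of 155 for RD, where 10.6% did. These pooled shares hide a split between the windows. In the smaller windows 4 of 47 summits were in a gap for RH18 and 7 of 47 for RD, both shares above the whole list. On chromosome 6 it was 1 of 108 for RH18 and 5 of 108 for RD, both below it. All these counts are small. More than 500 bp but at most 5 kb from an RH18 region lay 15 of the 155 summits, where 9.16% of all did, and at that distance from an RD region lay 10, where 6.99% of all did. Over 5 kb from any RH18 region lay 40 of the 155 summits (25.8%), where 18.7% of all did, and over 5 kb from any RD region lay 43, where 30.1% of all did.

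**Figure D1:**
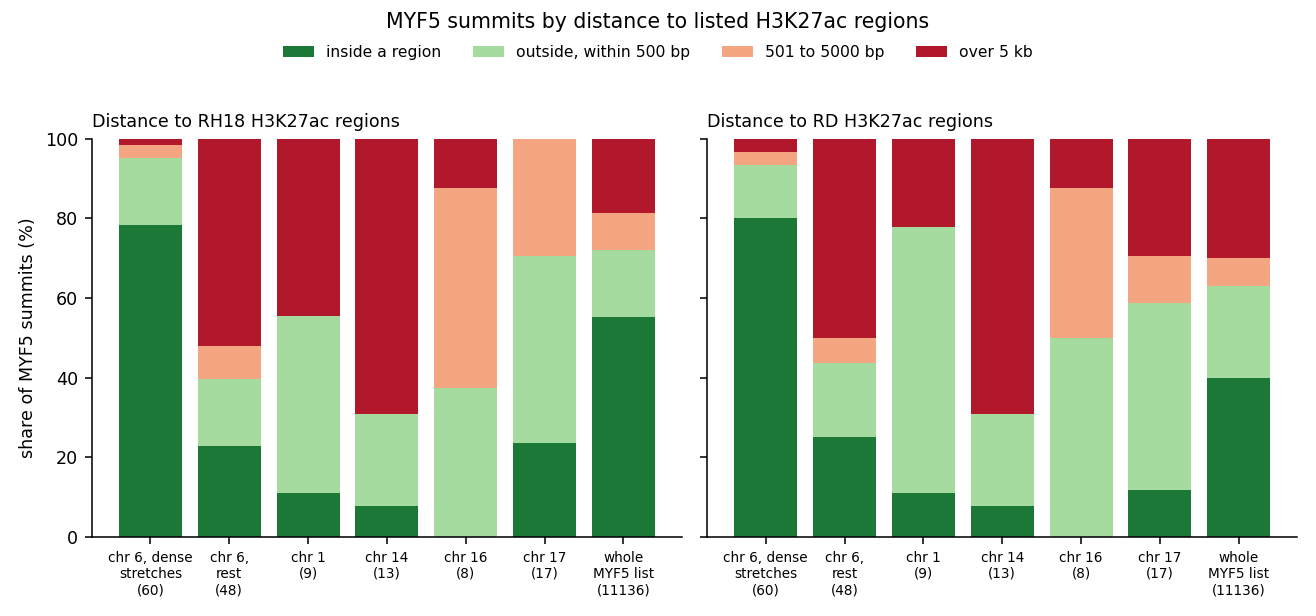
Share of MYF5 summits (%) in 4 classes of distance to the nearest listed H3K27ac region of RH18 (left) or RD (right), by window, with the chromosome 6 window split into its acetylation-dense stretches and the rest, and the whole MYF5 list last; the number of peaks is in brackets. Of the dense stretches' summits, 78.3% were inside an RH18 region, while 9 of 13 on chromosome 14 were over 5 kb from one.

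The chromosome 6 window, 2.95 Mb long, held 108 MYF5 peaks, 202 RH18 regions and 150 RD regions, and these were not spread evenly. Runs of 100 kb bins with at least 10 RH18 regions marked 3 dense stretches, a cut chosen after the values had been seen. The first, at 26000001 to 26300000, held 33 MYF5 peaks, 90 RH18 regions and 62 RD regions. The second, at 27100001 to 27200000, held 7, 16 and 10, and the third, at 27700001 to 27900000, held 20, 48 and 28, in the same order of lists. Together they held 60 of the 108 MYF5 peaks, 154 of the 202 RH18 regions and 100 of the 150 RD regions. Like the 3 runs of histone genes in RefSeq, the first stretch was the fullest and the middle one the shortest; which peaks lie at which genes was not analysed here.

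**Figure D2:**
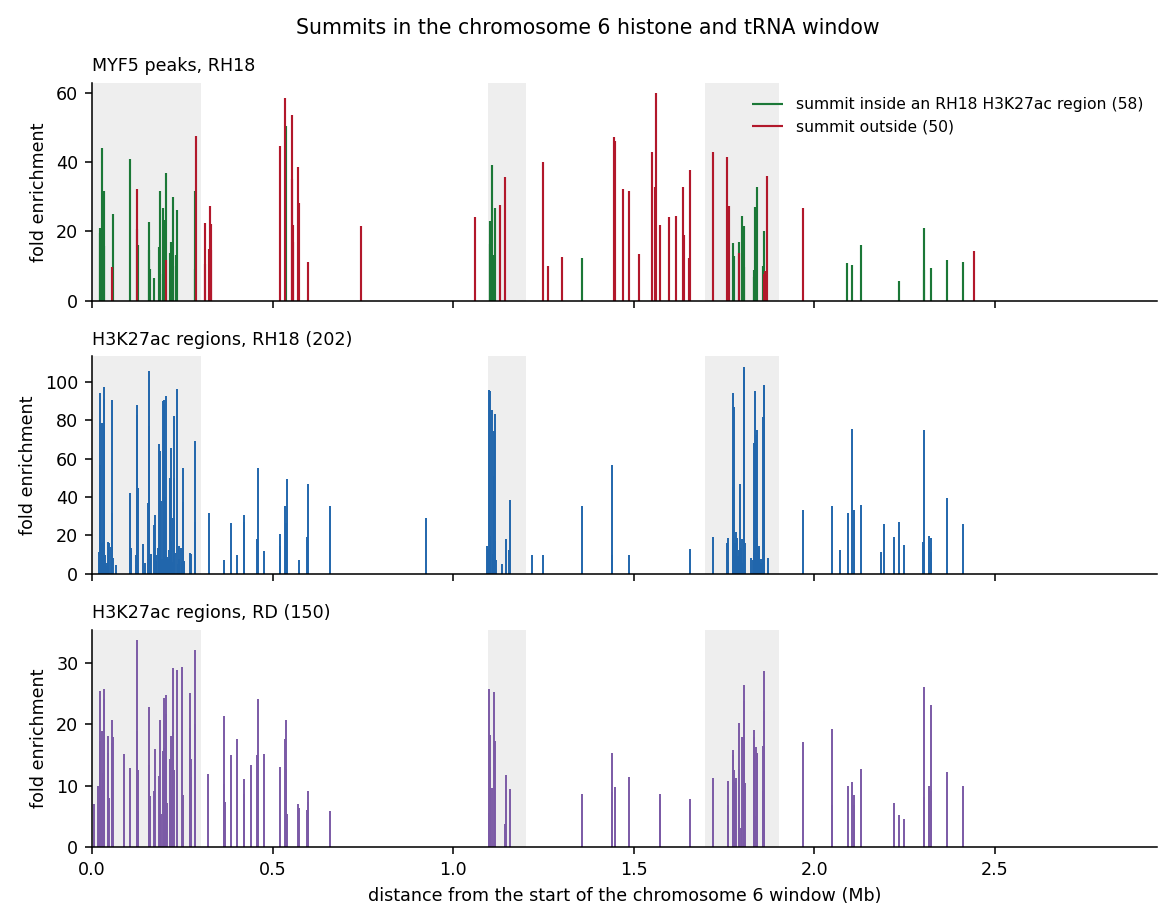
Fold enrichment of MYF5 peaks in RH18 (top), H3K27ac regions in RH18 (middle) and H3K27ac regions in RD (bottom) against the distance of the summit from the start of the chromosome 6 window in Mb; grey bands are the 3 dense stretches, and MYF5 colours show whether the summit was inside an RH18 region (58 inside, 50 outside). The tallest H3K27ac regions of both lines stand in the grey bands, while the tallest MYF5 peak, of fold 59.9, stands between them, and no list has a peak in the last 507.5 kb.

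In the dense stretches MYF5 and acetylation coincided. The MYF5 summit was inside an RH18 region for 47 of 60 peaks (78.3%, 65.8 to 87.9%) and inside an RD region for 48 of 60 (80.0%, 67.7 to 89.2%). In the rest of the window it was inside for 11 of 48 in RH18 (22.9%, 12.0 to 37.3%) and 12 of 48 in RD (25.0%, 13.6 to 39.6%). Over 5 kb from an RH18 region were 1 of 60 summits of the dense stretches and 25 of 48 of the rest. Because the stretches were cut by their number of RH18 regions, the RH18 shares follow in part from the cut. The RD shares come from a library that the cut did not use, though many regions are common to both lines.

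MYF5 peaks of the dense stretches were wide, but no taller by median fold than those of the rest of the window. Their median width was 544.5 bp, against 293 bp in the rest of the window and 256 bp over the list. At least 1 kb wide were 19 of 60 peaks in the dense stretches (31.7%, 20.3 to 45.0%) and 0 of 48 in the rest (up to 7.40%), where 1.48% of all MYF5 peaks were. Median fold was 19.9 in the dense stretches and 22.1 in the rest, on a median of 72 and 66.5 tags. The widest, at 27860007 to 27862152, was 2146 bp long with a fold of 20.1, and the next, at 27805247 to 27807286, was 2040 bp long. Both were in the third stretch, which also held the RH18 region of highest fold. MYF5 peaks whose summit was inside an RH18 region had a median width of 573.5 bp on chromosome 6, against 271 bp for such peaks over the list. Those outside had 291 bp, against 243 bp.

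**Figure D3:**
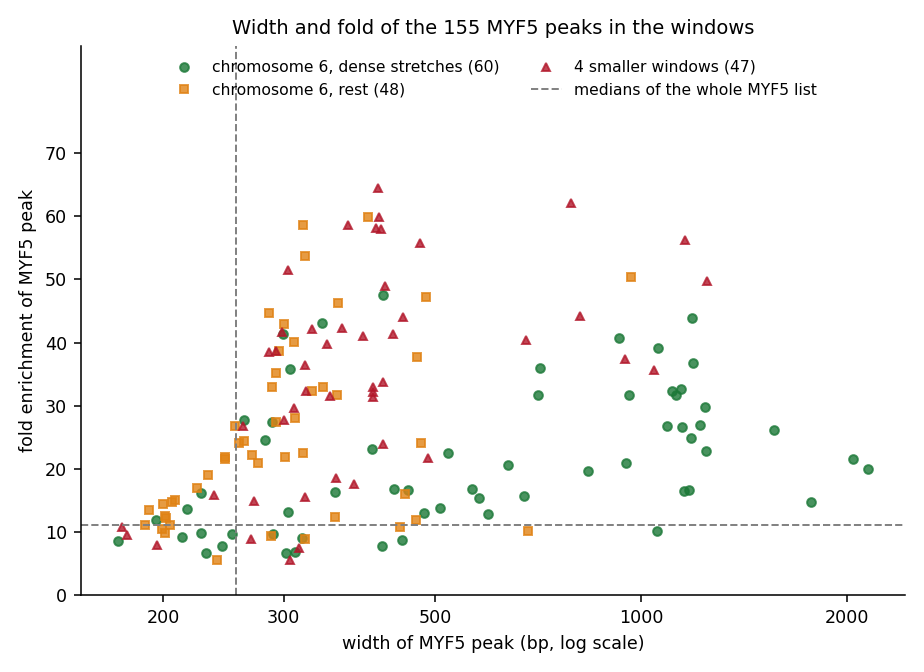
Width in bp (log scale) against fold enrichment for the 155 MYF5 peaks of the windows; green circles are the dense stretches of chromosome 6, orange squares the rest of that window, red triangles the 4 smaller windows, and dashed lines the medians of the whole MYF5 list (256 bp and 11.2). Peaks of at least 1 kb are almost all circles (19 of 22), and the tallest narrow peaks are squares and triangles.

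The tallest MYF5 peaks of the chromosome 6 window mostly had their summit outside acetylated regions, but most stood within 500 bp of a region of at least 1 line. The tallest of all, at 27560407 to 27560805, had a fold of 59.9 on 183 tags and lay 73383 bp from the nearest RH18 region and 12537 bp from the nearest RD region. The next, at 26533009 to 26533328, had a fold of 58.6 on 179 tags, with RH18 acetylation of fold 35.6 at 81 bp and an RD region at 115 bp. A peak at 26554238 to 26554560 (fold 53.7, 164 tags) lay 15137 bp from RH18 acetylation and 14969 bp from RD acetylation. The peak at 26537578 to 26538543 (fold 50.5, 154 tags) had its summit inside an RH18 region and 43 bp from an RD region. Of the 10 tallest, 2 had the summit inside an RH18 region and 1 inside an RD region, and 7 were not in a dense stretch. Over the top decile of the whole list, 37.6% of summits were inside an RH18 region and 28.4% inside an RD region.

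A bin at 26500001 to 26600000 held several of these. It held 10 MYF5 peaks, 9 RH18 regions and 10 RD regions, and its MYF5 peaks had a median fold of 36.9 and a median width of 294 bp. The bin at 27500001 to 27600000 held 6 MYF5 peaks with no RH18 region and 2 RD regions. By number of MYF5 peaks the leading bins were those starting at 26100001 (15 peaks), 27800001 (12), 26200001 (11), 26500001 (10) and 27700001 (8), so 1 of the leading 5 was outside the dense stretches.

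The MYF5 peaks inside RH18 regions were led, after the one at 26537578, by peaks of the first and second stretch. They lay at 26026524 to 26027709 (fold 43.97, 134 tags), 26103966 to 26104894 (fold 40.8, 133 tags), 27106879 to 27107936 (fold 39.1, 119 tags) and 26204580 to 26205769 (fold 36.8, 112 tags). Each was also inside an RD region. The lowest MYF5 peaks of the window were inside acetylated regions as well. The lowest, at 28234833 to 28235072, had a fold of 5.59 on 41 tags and was inside a region in both lines, as were those at 26198538 (fold 6.65), 26172234 (fold 6.66) and 27833812 (fold 6.83). The fifth, at 27862235 (fold 7.79), was 62 bp from an RH18 region and inside an RD region. High and low MYF5 peaks thus both occurred on acetylated chromatin.

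The RH18 H3K27ac regions of highest fold were in the third and first stretches. The highest, at 27805509 to 27806192, had a fold of 107.7 on 299 tags and held 1 MYF5 summit. Its neighbour at 27806313 to 27807465 (fold 106.0, 295 tags) held none, and the region at 26156298 to 26157732 (fold 105.6, 293 tags) held 1. Regions beginning at 27861149 (fold 98.1) and 27859622 (fold 98.0) completed the 5 highest. All of them overlapped an RD region. The RD regions of highest fold were in the first stretch. They began at 26122674 (fold 33.7, 199 tags), 26285294 (fold 32.1), 26249865 (fold 29.4), 26223837 (fold 29.3) and 26233325 (fold 28.9). All overlapped an RH18 region, and the last held 2 MYF5 summits. So 4 of the 5 highest regions were in the third stretch in the RH18 library and 0 of 5 in the RD library. The RD count depends on the cut at 5. The next RD region, at 27861230 to 27863705 in the third stretch, had a fold of 28.7, just below the fifth. It overlaps the RH18 region beginning at 27861149. The third stretch held 48 of the window's 202 RH18 regions and 28 of its 150 RD regions.

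The end of the chromosome 6 window held no peak in any list. The last MYF5 peak ended at 28442495, the last RH18 region at 28411347 and the last RD region at 28411239. The next peak on the chromosome began at 33538938 for MYF5, 33538767 for RH18 and 33538726 for RD, an empty stretch of 5.10 Mb, 5.13 Mb and 5.13 Mb. It took up the last 507.5 to 538.8 kb of the window. The peak numbers of the lists ran on across it with 0 skipped. The cause was not tested.

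**Figure D4:**
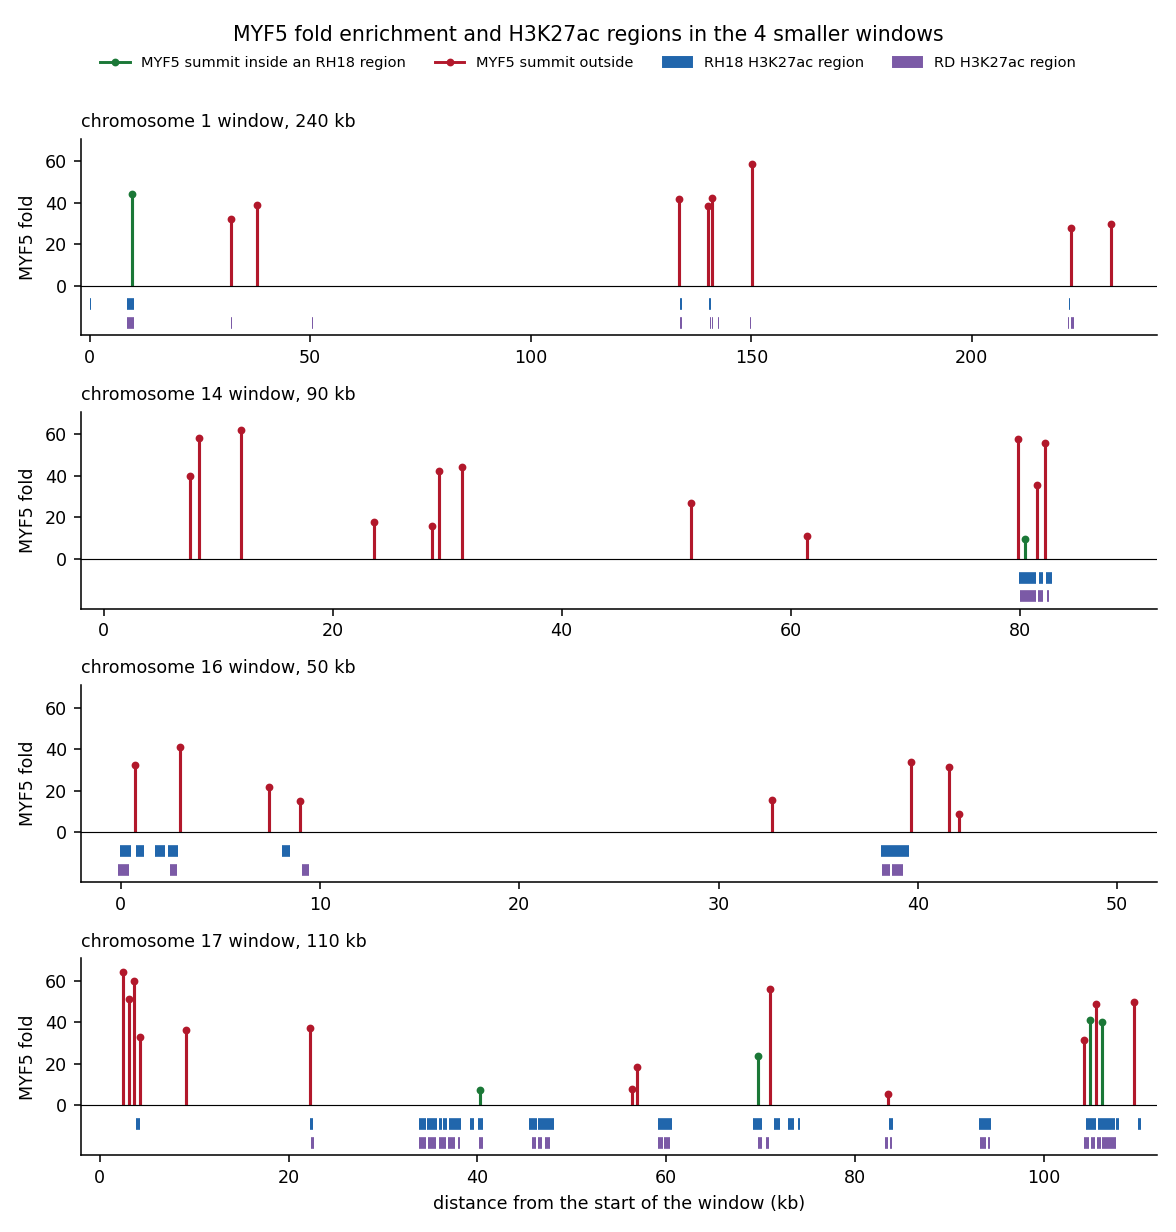
MYF5 fold enrichment (stems) against distance from the window's start in kb for the 4 smaller windows, coloured by whether the summit was inside an RH18 region, with RH18 (blue) and RD (purple) H3K27ac regions as bars below 0. Most stems stand between or beside the bars: 6 of the 47 summits were inside an RH18 region.

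The chromosome 17 window, 0.11 Mb long, held 17 MYF5 peaks, 22 RH18 regions and 23 RD regions, the most acetylated regions of the smaller windows. In RefSeq's gene order a run of tRNA genes on this chromosome lies among HES7, a repressor of the segmentation clock, PER1, a circadian clock gene, VAMP2, a vesicle fusion gene, AURKB, the Aurora B mitotic kinase, and CTC1, a telomere maintenance gene. This and the gene neighbours named for the next windows are background, and no peak was placed at them. MYF5 folds ran from 5.60 to 64.4. The 4 MYF5 peaks nearest the lower edge stood around 1 RH18 region and far from any RD region. They began at 8022288 (fold 64.4, 197 tags, the tallest of all windows), 8022929 (51.4, 157 tags), 8023440 (59.9, 183 tags) and 8024065 (32.9). That RH18 region, of fold 12.3, was 1356, 784, 211 and 49 bp away, and the nearest RD region was 18077 to 19866 bp away. At the other end, 4 peaks beginning at 8124068 (fold 31.6), 8124689 (41.4), 8125348 (48.97) and 8125958 (40.4) stood among the strongest acetylated regions of the window. There the summits of the peaks at 8124689 and 8125958 were inside RH18 regions of fold 66.3 and 78.8, and that of the peak at 8125348 sat in a gap of 239 bp between them. A peak at 8090030 to 8091190 (fold 56.2, 209 tags) lay 486 bp from an RH18 region and 125 bp from an RD region. The last, at 8129349 to 8130597, was 1249 bp wide with a fold of 49.8.

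Low MYF5 peaks in this window were at 8103466 (fold 5.60, 30 tags), 8059996 (7.45, 41 tags) and 8076324 (7.97, 46 tags). The one at 8059996 was inside a region of both lines, and that at 8103466 was inside an RD region and 144 bp from an RH18 region. H3K27ac was highest at 8125721 to 8127491 in RH18 (fold 78.8, 261 tags) and at 8126198 to 8127675 in RD (fold 21.5, 206 tags), regions that overlap. Of the regions here, 17 of 22 in RH18 overlapped an RD region (77.3%, where 45.1% of all RH18 regions did) and 21 of 23 in RD overlapped an RH18 region (91.3%, where 60.0% of all RD regions did). Summits were within 500 bp of an RH18 region for 12 of 17 MYF5 peaks (where 72.1% of all MYF5 summits were) and of an RD region for 10 of 17 (where 62.9% were).

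The chromosome 14 window, 0.09 Mb long, held 13 MYF5 peaks and only 3 regions of each line. RefSeq has tRNA genes on this chromosome near OR6S1, an olfactory receptor gene, and ANG, a ribonuclease that cuts tRNA. The acetylated regions stood together near the upper edge. In RH18 they began at 21149959 (fold 100.2, 278 tags), 21151647 (29.9) and 21152275 (28.8), and in RD at 21150008 (10.9, 196 tags), 21151602 (12.5) and 21152344 (8.42). Each overlapped its counterpart in the other line. Of the MYF5 peaks, 4 stood at this cluster and 9 lay 18578 to 72434 bp from the nearest RH18 region, and as far from RD regions. The 9 included the tallest of the window, at 21081336 to 21082126 (fold 62.2, 190 tags), and peaks at 21078141 (fold 58.1, 178 tags), 21101079 (44.1, 183 tags) and 21099152 (42.1, 154 tags). They also included lower ones at 21093475 (17.7), 21098520 (15.95) and 21131308 (10.9). No region of either line was listed between these peaks, at the depth of these libraries.

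At the acetylated cluster on chromosome 14, 3 tall MYF5 summits stood at the borders of regions. The first, at 21149739 (fold 57.9, 177 tags), lay 69 bp from the RH18 region and 118 bp from the RD region. The second, at 21150748 to 21151791 (fold 35.6, 161 tags), was 96 bp from an RH18 region and 88 bp from an RD region, in a gap of 228 bp in RH18. The third, at 21152007 (fold 55.8, 171 tags), sat in a gap of 212 bp in RH18 and 274 bp in RD. The 1 summit of this window that lay inside a region of either line was the lowest, at 21150424 with a fold of 9.58 on 28 tags.

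The chromosome 1 window, 0.24 Mb long, held 9 MYF5 peaks, 5 RH18 regions and 11 RD regions. RefSeq has tRNA genes on this chromosome among FCGR2A, FCGR3A and FCGR3B, which encode receptors for immunoglobulin G on blood cells, and HSPA6, a heat shock protein gene. All 9 MYF5 peaks were in the top decile of the list, with folds of 27.8 to 58.6, the narrowest range of the 5 windows. One summit, at 161368914 to 161369727 (fold 44.3, 214 tags), was inside an RH18 region of fold 63.4 on 292 tags and lay in a gap of 89 bp between RD regions. The tallest, at 161509907 to 161510279 (fold 58.6, 179 tags), lay 88 bp from an RD region of fold 13.6, while the nearest RH18 region was 9209 bp away. The peak at 161391738 (fold 32.3, 127 tags) likewise lay 88 bp from an RD region (fold 5.97) and 21798 bp from any in RH18.

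The other MYF5 peaks of the chromosome 1 window were near regions of both lines or of neither. Those at 161493521 (fold 41.7), 161500014 (38.5) and 161500789 (42.4) lay 131, 263 and 114 bp from an RH18 region and 184, 498 and 92 bp from RD acetylation. The RD regions nearest to 161493521 and 161500014 had low folds of 3.085 and 4.3. Their local backgrounds were 21.9 and 14.1 times the lowest of the RD list. The peak at 161582416 (fold 27.8, 84 tags) was inside an RD region and 236 bp from an RH18 region. The peaks at 161397762 (fold 38.7) and 161591365 (29.7) were over 5 kb from regions of either line. Counting summits up to 500 bp away, 5 of 9 were near RH18 acetylation (55.6%, where 72.1% of all MYF5 summits were) and 7 of 9 near RD acetylation (77.8%, where 62.9% were). The regions here numbered 5 in RH18 and 11 in RD as deposited, but 5 in RH18 and 3 in RD at a −log10 q-value of at least 20. Most of the 7 summits near RD acetylation were near RD regions below that cut. Of the 11 RD regions 5 overlapped an RH18 region (45.5%, where 60.0% of all RD regions did).

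The chromosome 16 window, 0.05 Mb long, held 8 MYF5 peaks, 6 RH18 regions and 5 RD regions. RefSeq has tRNA genes on this chromosome around OR1F1, an olfactory receptor gene, between the zinc finger genes ZNF213 and ZNF200. The local background of its MYF5 peaks, the level the caller had divided by, was the highest of the 5 windows. The median background of its MYF5 peaks was 4.13 times the lowest of the list, against 1.27 over the list, and 7 of 8 were raised to at least 2 times. Raised in the other windows were 5 of 17 on chromosome 17, 1 of 9 on chromosome 1, 8 of 108 on chromosome 6 and 0 of 13 on chromosome 14. The H3K27ac lists gave medians of 2.67 in RH18, against 1.52 over that list, and 3.13 in RD, against 2.34. In RD this was not particular to chromosome 16, since the median was also 3.13 on chromosomes 1 and 14 and was 3.38 on chromosome 17. The fold divides by this level. The window's MYF5 summits rested on a median of 168 tags, the highest of the 5 windows, while their median fold of 26.5 was the lowest of the 4 smaller ones. The part of the background in the folds was not tested.

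MYF5 summits on chromosome 16 were outside acetylated regions in all 8 cases. The peak at 3200542 (fold 32.2) had 243 tags, the most of any MYF5 peak in the windows, and lay in a gap of 262 bp between RH18 regions. The tallest, at 3202773 (fold 41.0, 224 tags), lay 87 bp from an RH18 region and 141 bp from an RD region. Peaks at 3239444 (33.8, 204 tags), 3241359 (31.3, 142 tags), 3207087 (21.7, 179 tags), 3232482 (15.6, 157 tags), 3208835 (14.98, 127 tags) and 3241913 (8.88, 93 tags) followed. They lay 113, 2004, 666, 5473, 511 and 2509 bp from the nearest RH18 region, in that order. Within 500 bp of a region were 3 of 8 in RH18 (37.5%, where 72.1% of all MYF5 summits were) and 4 of 8 in RD (where 62.9% were). H3K27ac was highest at 3202391 in RH18 (fold 18.5, 94 tags) and at 3199861 in RD (fold 13.3, 143 tags).

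The lines were then set side by side over the windows. Of the RH18 regions, 142 of 238 overlapped an RD region (59.7%, 53.1 to 66.0%), where 45.1% of all RH18 regions did. Of the RD regions, 156 of 192 overlapped an RH18 region (81.3%, 75.0 to 86.5%), where 60.0% of all RD regions did. Both shares were above those of the whole lists. Neighbouring regions are not independent replicates, so the intervals are no test of this. By window the RH18 counts were 115 of 202 on chromosome 6, 17 of 22 on chromosome 17, 3 of 3 on chromosome 14, 4 of 5 on chromosome 1 and 3 of 6 on chromosome 16. Within chromosome 6 it was 78 of 154 in the dense stretches (50.6%, 42.5 to 58.8%) and 37 of 48 in the rest (77.1%, 62.7 to 88.0%). Since the stretches were cut by their number of RH18 regions, this difference follows in part from the cut. The unshared region of highest fold was at 27794313 to 27796758 in RH18 (fold 46.7) and at 26205861 to 26206193 in RD (fold 21.8).

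MYF5 had been mapped in RH18 alone, and of its 155 summits in the windows 100 stood no more than 500 bp from RH18 acetylation (64.5%, where 72.1% of all MYF5 summits did) and 102 no more than that from RD acetylation (65.8%, where 62.9% did). All 64 summits inside an RH18 region were within 500 bp of an RD region, where 81.2% of such summits over the list were. Within 500 bp of a region in both lines were 93 of 155 summits (60.0%), where 54.7% of all MYF5 summits were. Near a region in RH18 alone were 7 (4.52%, where 17.4% of all were), near a region in RD alone 9 (5.81%, where 8.22% were), and beyond 500 bp in both lines 46 (29.7%, where 19.7% were). The 7 near RH18 alone included 2 on chromosome 17, at 8023440 and 8024065, and 5 on chromosome 6. The 9 near RD alone included 161391738 and 161509907 on chromosome 1, 3208835 on chromosome 16 and 6 on chromosome 6, among them a pair at 27446417 (fold 47.2) and 27447302 (fold 46.3). Seen from the regions, 57 of 238 RH18 regions held a MYF5 summit (23.9%), where 12.0% of all did, and 59 of 192 RD regions did (30.7%), where 9.71% of all did. These shares also follow in part from the choice of windows by their MYF5 peaks.

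MYF5 summits stood close together in the windows, which follows in part from how the windows were chosen. An interval could be no longer than its window, and the chromosome 16 window is shorter than the list's median spacing. The median distance between neighbouring summits was 2245 bp on chromosome 16, 2321 bp on chromosome 17, 2770 bp on chromosome 14, 7047 bp on chromosome 6 and 9030 bp on chromosome 1, against 62070 bp over the list. Neighbours less than 1 kb apart made up 7 of 16 intervals on chromosome 17, 4 of 12 on chromosome 14, 1 of 7 on chromosome 16, 1 of 8 on chromosome 1 and 14 of 107 on chromosome 6, against 8.09% over the list. The widest interval on chromosome 6 ran for 314308 bp from 26745278 to 27059586.

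At every border of the windows the nearest MYF5 peak inside was taller than the nearest one outside. At the lower border the nearest peak inside and the nearest outside had folds of 20.9 and 9.32 on chromosome 6, 44.3 and 8.45 on chromosome 1, 39.8 and 6.12 on chromosome 14, and 32.2 and 9.36 on chromosome 16. At the upper border they had 14.5 and 10.2 on chromosome 6, 29.7 and 7.62 on chromosome 1, 55.8 and 8.01 on chromosome 14, and 8.88 and 4.56 on chromosome 16. On chromosome 17 they were 64.4 and 34.1 at the lower border and 49.8 and 6.19 at the upper one. The nearest outside peak lay 7307 bp from the lower border on chromosome 6 and 25766 bp or more from every other border. It was 223258 bp away at the lower border on chromosome 17. At the upper border on chromosome 6 it was 4589042 bp away, across the empty stretch, and the nearest inside peak was 507600 bp away. Peaks farther out could be taller, as the third outside the lower border on chromosome 6 had a fold of 32.6. These values follow from how the windows were drawn and are given as a description.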

How the data were processed

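Peak lists of 3 ChIP-seq libraries were used, 1 list per library. The submitters' processing notes name BWA 0.7.10, MACS2 2.1.0 and hg19, and no threshold or control. The deposited values of a peak are its place, summit offset, score, fold (a ratio to local background), and −log10 of its p-value and q-value. All are the authors' own values per peak. The deposited score was not used. The windows, gene lists and cuts were chosen with earlier results of these data known. The named peaks were those of highest and lowest fold in each window, those of highest fold inside RH18 regions on chromosome 6, and those nearest to a window's border; further peaks were named after their values were seen.

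A peak belonged to a window by an overlap of at least 1 bp. A MYF5 peak was placed by its summit, and a region counted as shared if 1 bp or more of it was covered in the other line. Read totals are not given in the sources used here. Tags and local background at a summit were worked back from the authors' fold and p-value with the formulas of MACS2. In pileup units, each tag counted 0.658 for MYF5, 0.832 for RH18 H3K27ac and 0.273 for RD H3K27ac. This worth of a tag was fitted so that peaks with a single solution came out most nearly whole. Within 0.1 tag, 100.0% of the peaks with a single solution were then whole in each list, where chance gives 20.0%. Several solutions were found for 18.6%, 7.77% and 45.3% of peaks, in the same order. They were settled by the nearest whole tag, so chance is higher for them. All of these came out whole too. The step was tested on simulated data. The deposited −log10 p-value went down to 9.09 for MYF5, 7.09 for RH18 H3K27ac and 5.00 for RD H3K27ac. Backgrounds are given relative to the lowest in the same list. No genome or annotation of build hg19 was used, so peaks have no sequence and no gene. Box B motifs of tRNA genes and cell type markers were not analysed here. Promoters and gene order come from RefSeq (GRCh38.p14). Tools were matplotlib 3.10.9, numba 0.67.0, Python 3.11.15, scipy 1.17.1, pandas 2.3.3 and numpy 2.4.6. Alternatives were stricter q-values, membership by summit, wider windows, other rules for inside and shared, tags in place of fold, and leaving out the chromosome 6 window.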

Additional observations from a re-analysis of the deposited data

How the results depend on the processing

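Of 75 values recomputed under alternatives, 61 moved by less than their limit and 14 moved further. With a −log10 q-value of at least 10, RD regions fell to 7 of 11 on chromosome 1 and 3 of 5 on chromosome 16. At 20 they fell to 92 of 150 on chromosome 6, 3 of 11 on chromosome 1, 2 of 5 on chromosome 16 and 11 of 23 on chromosome 17. The RD list reaches weaker peaks than the RH18 list, and the MYF5 and RH18 counts stayed within 1.5 times. The share of MYF5 summits inside RH18 regions (41.3%) was 55.5% with any overlap of the peak, 64.5% within 500 bp and 12.8% without the chromosome 6 window. Inside RD regions (41.3%) it was 60.0%, 65.8% and 8.51% under the same changes. With an overlap of 50% of both regions, 39.5% of RH18 regions were shared, against 59.7%, and 49.0% of RD regions, against 81.3%. Whole-list shares under the any-overlap rule and the 50% rule are not given here. Values under these 2 rules therefore cannot be set against the whole-list shares given above. The median fold of MYF5 peaks over that of the list was 2.16, and it was 2.00 with tags and 2.09 at the lowest background. The windows were chosen by this height, so these ratios describe the choice and do not test it. The search for box B motifs was not run, since it needs an hg19 genome. No paired analysis was possible because each group held 1 library. For the same reason no replicate could be left out. Depth limits the lower peaks: a missing region means that no peak was listed at this depth.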
